A study of Mus musculus with 4 samples.

Results

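The genes described here are 37 factors of ribosome biogenesis, listed by gene symbol with no threshold on a measured value: nucleolar proteins, subunits of RNA polymerase I and assembly factors of both ribosomal subunits. Of these, 34 could be read on the array, among 12393 genes with a probe set of their own. Dkc1 and Nob1 have no probe set in the platform annotation used here, and the single probe set that lists Mrto4 also lists 2 pseudogenes, so these 3 genes have no value. All 34 passed the level filter, which asked that the highest of the 4 arrays reach the table-wide median of 20.04 intensity units, and they passed it also by their mean.

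RNA came from primary keratinocytes (epithelial cells that build the epidermis) grown from the tail skin of C57BL/6 mice, and was read on the Affymetrix Mouse Expression Array 430A, whose probe sets read transcripts near their 3′ ends. All 4 cultures carried a floxed Prdm1 gene, which encodes the transcriptional repressor Blimp-1, and received 4-hydroxytamoxifen (4OHT), or ethanol (EtOH) as its vehicle, between day 1 and day 3 before collection on day 5. They grew in serum-free CnT-07 medium on plates coated with collagen I. The groups are control EtOH and control 4OHT, without CreER, and CKO EtOH and CKO 4OHT, with CreER, a Cre recombinase that 4OHT activates. The design thus asks what changes when Prdm1 is removed in culture, and CKO 4OHT is the group with both recombinase and inducer. The sources used here do not give the promoter that drives CreER, the floxed part of Prdm1 or the number of mice behind a culture. The 2 genotypes came from different mice. Each group has 1 array, so nothing could be tested and no error can be given: every difference below is between 2 single cultures, and 4 arrays limit its precision.

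Ribosomes are made in the nucleolus. RNA polymerase I transcribes a long precursor there, small nucleolar ribonucleoproteins (snoRNPs) guide its chemical modification and cleavage, and a succession of assembly factors, helicases and GTPases joins it to ribosomal proteins and carries the small and the large subunit to export. The pathway takes up much of the energy of growing cells, many of its genes are classic targets of the transcription factor Myc, and its activity is known to be high in growing keratinocytes and to fade as they differentiate.

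Levels are deposited RMA intensities on a linear scale, and differences are log2 ratios of 2 arrays. Where 4 levels stand in a row, they run from control EtOH and control 4OHT to CKO EtOH and finally CKO 4OHT. The arrays had medians between 19.95 and 20.22, and RMA aligns their distributions, so a rise or fall shared by most transcripts of a culture would not be seen. Prdm1 was at 20.7, 52.4, 17.0 and 6.43, lowest on the array labelled as deleted, though a probe set outside the floxed part would not read the deletion. The keratinocyte keratins Krt14 and Krt5 lay between 6437 and 6663 and between 3298 and 3774. Markers of other skin cells were dim: 1 of 6 fibroblast, 1 of 7 immune and 0 of 4 endothelial markers reached the table median. Of the 5 melanocyte markers on the array 4 did, with a summed intensity over all 5 of 112, 113, 101 and 129, and their part in the results below was not tested.

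Most of the ribosome biogenesis genes were highest in CKO 4OHT and most were lowest in control 4OHT, by small amounts. Of the 34, 29 had their highest value in CKO 4OHT, where 31.6% of the 7461 measured genes had theirs, and 26 had their lowest in control 4OHT, where 30.8% of measured genes did. None had its highest value in control 4OHT or CKO EtOH (23.9% and 15.1% of measured genes), and the other 5 (Fbl, Gar1, Polr1c, Nop14 and Emg1) were highest in control EtOH (29.4%). Set against each gene's own mean over the 4 arrays, the median of the 34 was 0.28 in CKO 4OHT, -0.22 in control 4OHT, 0.03 in control EtOH and -0.05 in CKO EtOH on the log2 scale, while the medians of all measured genes lay between -0.02 and 0.02. A single gene, Nop56, stood at least 1.5-fold above all 3 other arrays in CKO 4OHT, where 2.48% of measured genes did, and it also stood as far below all others in control 4OHT, where 0.241% did.

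**Figure D1:**
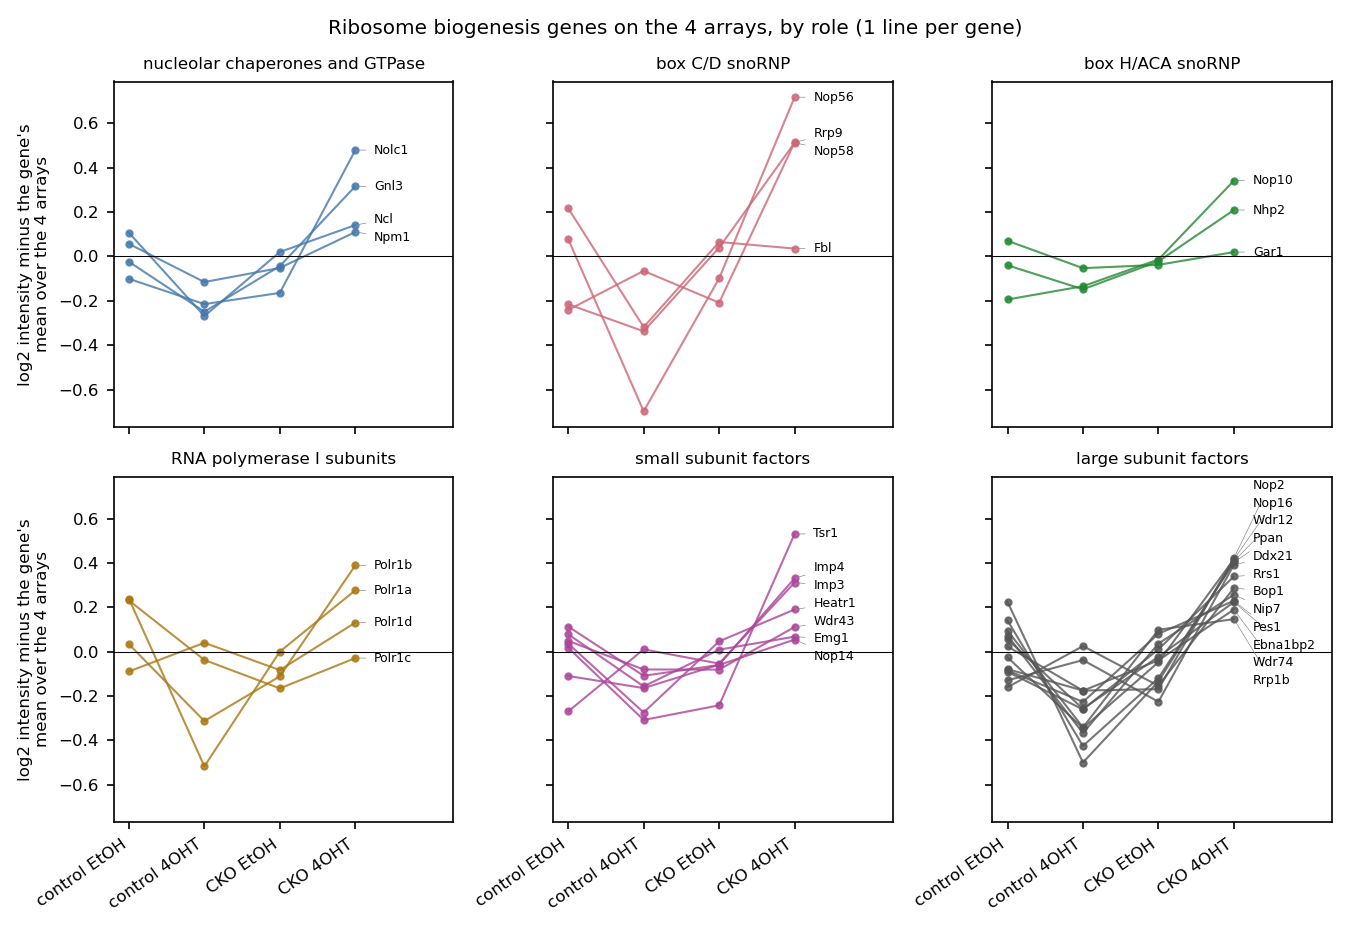
Log2 intensity of each of the 34 ribosome biogenesis genes minus its mean over the 4 arrays, in 6 panels by role; points are single arrays, joined by 1 line per gene, with no error bars because each group has 1 array. Most lines dip at control 4OHT and end highest at CKO 4OHT, with Nop56 spanning the widest range.

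Against CKO EtOH, cells with CreER but without its inducer, 33 of the 34 genes were higher in CKO 4OHT, where 51.3% of measured genes were. Their median difference was 0.30 (1.23-fold), against 0.01 over all measured genes and 0.02 over the 4218 genes that reached the 75th percentile of the table, as 33 of the 34 did. Past 1.5-fold were 6 genes, all higher (5.67% of measured genes higher past 1.5-fold, 5.47% lower), and none passed 2-fold (1.78% and 1.86%). Against control 4OHT, cells given the drug without CreER, all 34 were higher, where 52% of measured genes were, with a median of 0.48 (1.39-fold) against 0.01. Here 12 passed 1.5-fold, all higher (6.65% of measured genes higher, 6.04% lower), and 1, Nop56, passed 2-fold (1.45%, with 2.24% lower). Both comparisons share the CKO 4OHT array.

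**Figure D2:**
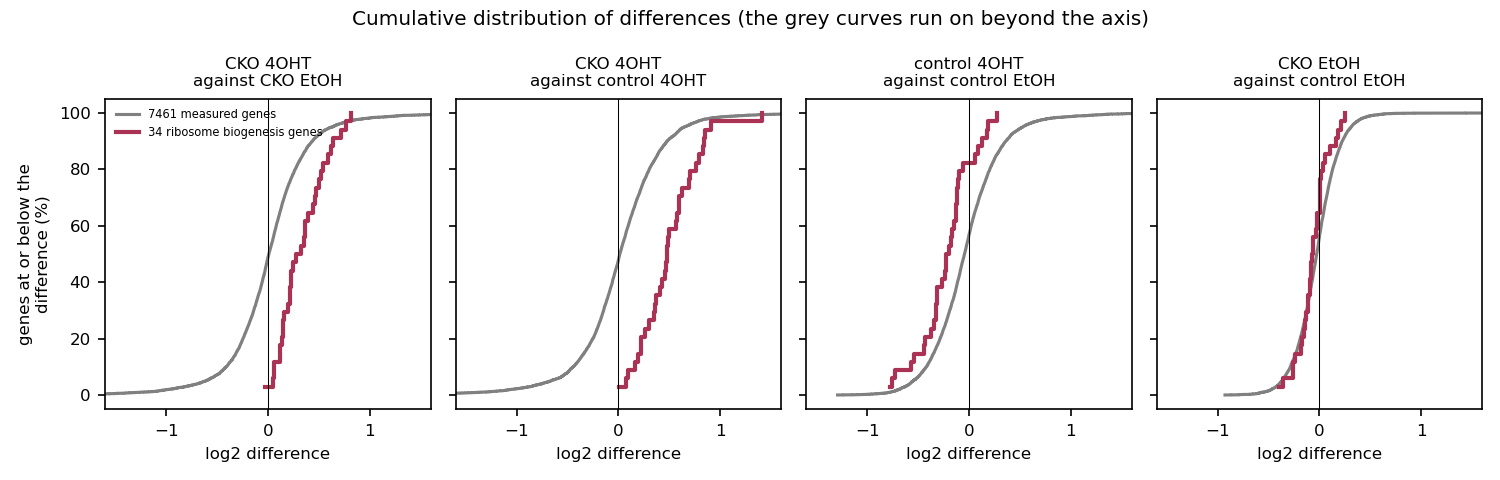
Cumulative share of genes (percent) at or below each log2 difference, for the 34 ribosome biogenesis genes (red) and the 7461 measured genes (grey) in 4 comparisons of single arrays. The red curve lies to the right of the grey one in both comparisons of CKO 4OHT (medians 0.30 and 0.48), to its left for control 4OHT against control EtOH (median -0.21), and near it for CKO EtOH against control EtOH (median -0.07).

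Because most of the genes differed the same way, the bases before their starts were read from the RefSeq promoter table (GRCm38.p6), which matched 30 of the 34 genes with 33 promoters. Shown are the 250 bases before the start of Nop56, the gene furthest apart, of Nolc1 and Nop2, which were past 1.5-fold against both other arrays and hold an ETS motif, and of Imp4, which like Nop2 holds an E-box. All 4 lie on the plus strand of their chromosomes: Nop56 at chr2:130274162-130274411, Nolc1 at chr19:46075597-46075846, Nop2 at chr6:125131633-125131882 and Imp4 at chr1:34439579-34439828. Capitals mark matches of the motifs searched.
Nop56: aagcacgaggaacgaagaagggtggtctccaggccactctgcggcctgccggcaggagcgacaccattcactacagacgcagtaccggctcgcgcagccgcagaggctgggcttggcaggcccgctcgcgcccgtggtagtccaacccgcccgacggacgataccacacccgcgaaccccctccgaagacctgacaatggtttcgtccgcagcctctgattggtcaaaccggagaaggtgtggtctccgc
Nolc1: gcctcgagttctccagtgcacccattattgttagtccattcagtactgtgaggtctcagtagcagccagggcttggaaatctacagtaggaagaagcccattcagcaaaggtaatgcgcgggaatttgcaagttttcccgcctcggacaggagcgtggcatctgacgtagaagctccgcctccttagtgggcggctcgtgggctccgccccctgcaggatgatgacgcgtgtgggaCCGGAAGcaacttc
Nop2: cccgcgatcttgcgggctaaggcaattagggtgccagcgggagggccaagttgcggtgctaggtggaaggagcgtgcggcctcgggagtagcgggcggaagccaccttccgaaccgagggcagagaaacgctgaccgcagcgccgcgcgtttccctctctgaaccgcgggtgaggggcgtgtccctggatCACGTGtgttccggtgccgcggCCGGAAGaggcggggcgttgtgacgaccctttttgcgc
Imp4: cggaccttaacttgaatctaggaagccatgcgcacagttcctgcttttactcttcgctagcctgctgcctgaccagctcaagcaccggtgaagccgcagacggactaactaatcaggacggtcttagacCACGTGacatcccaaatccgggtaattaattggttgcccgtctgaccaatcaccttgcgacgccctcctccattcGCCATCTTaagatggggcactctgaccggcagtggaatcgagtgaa

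The motifs searched, on both strands, were the E-box CACGTG, which Myc and related factors bind, the ETS motif CCGGAAG, GCGCATGC for NRF1, AAGATGGC for YY1, AGNGAAAG as the core of Blimp-1 sites, and TATAAA. The ETS motif stood in 9 of the 33 promoters (27.3%), against 14.5% of 7882 promoters of measured genes and 8.98% of 21262 promoters of protein-coding genes. The genes were Emg1, Gar1, Heatr1, Nhp2, Nip7, Nolc1, Nop2, Polr1c and Wdr74, which include genes with large and with small differences. The E-box stood in 2 of 33 (6.06%), those of Nop2 and Imp4, against 8.77% and 6.63%. With the 50 bases after the start included, 5 of 33 held an E-box (15.2%), against 10.5% and 7.84%. In that wider window 12 held the ETS motif (36.4%), against 18.8% and 11.6%, and 3 the Blimp-1 core (9.09%), against 7.32% and 8.07%. Counts of the remaining motifs among the 33 were the same in both windows. The Blimp-1 core stood in 2 (6.06%), Nhp2 and Pes1, against 6.41% and 6.88%. TATAAA stood in 2 (6.06%), Pes1 and Ppan, against 6.27% and 11.6%. The YY1 motif stood in 1 (3.03%), Imp4, against 2.21% and 1.5%. The NRF1 motif stood in 0, against 4.63% and 2.93%. No match overlapped one of another motif, and a match is a description of the letters, not a bound site.

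Of the nucleolar chaperones and the nucleolar GTPase, all 4 genes were higher in CKO 4OHT than in either other array it was compared with, with median differences of 0.26 against CKO EtOH and 0.49 against control 4OHT. Nolc1 encodes Nopp140, which accompanies snoRNPs to the nucleolus. Its intensity was 95.8, 88.5, 91.7 and 143. The other 3 arrays lay close together and CKO 4OHT stood 1.49-fold above the highest of them, with differences of 0.64 against CKO EtOH and 0.69 against control 4OHT. Gnl3 encodes nucleostemin, a GTPase abundant in the nucleoli of dividing and stem cells, and was at 230, 197, 227 and 291. It was thus highest in CKO 4OHT (0.36 against CKO EtOH). Ncl, nucleolin, which binds the precursor RNA, was at 778, 600, 733 and 797, and Npm1, nucleophosmin, was at 2195, 1948, 2036 and 2278. For both, with the probe sets used, CKO 4OHT exceeded control EtOH by little, and the lowest value was in control 4OHT. Further Ncl probe sets that reached the table median were lower in CKO 4OHT than in control EtOH (-0.09 and -0.24). The second Npm1 probe set was 0.61 above control 4OHT.

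The proteins of box C/D snoRNPs, which guide methylation of ribosomal RNA, held, against CKO EtOH, both the largest difference among the 34 genes (Nop56) and the single one below 0 (Fbl). Nop56, a scaffold protein of these particles, was at 382, 223, 338 and 595. CKO 4OHT was the high array, 1.56-fold above control EtOH, and control 4OHT was the low one, 1.51-fold below CKO EtOH. The difference was 0.82 against CKO EtOH (1.76-fold), with 202 of the 7461 measured genes further up, and 1.42 against control 4OHT (2.67-fold), with 41 further up. Nop58, its partner in the particle, was at 122, 112, 146 and 202, higher in CKO 4OHT by 0.47 and 0.85. Rrp9, which binds the U3 snoRNA needed for early cleavage, was at 94.1, 106, 96.3 and 159, higher by 0.72 and 0.58. In Rrp9 the control 4OHT array was not the low one, and CKO 4OHT stood 1.49-fold above it. Fbl, fibrillarin, the methyltransferase of the particle, was at 726, 501, 653 and 640. Fbl did not share the high value in CKO 4OHT (-0.03 against CKO EtOH), but was like Nop56 and Nop58 lowest in control 4OHT.

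The box H/ACA snoRNPs guide the conversion of uridine to pseudouridine, and 3 of their 4 core proteins were measured. None of the 3 passed 1.5-fold in any comparison with the probe set used. The second Nhp2 probe set did, at 0.78 against CKO EtOH and 0.82 against control 4OHT. The second Nop10 probe set was at 0.57 in both. Nop10 was at 649, 677, 735 and 941, highest in CKO 4OHT by 0.36 over the next array. Nhp2 was at 501, 465, 507 and 595, with the same array highest by 0.23. Gar1 was nearly flat at 217, 200, 202 and 210, a 1.09-fold range and the narrowest of the 34 genes.

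RNA polymerase I, which makes the ribosomal RNA precursor, was read by 4 subunits. With the probe sets used, CKO 4OHT differed from control 4OHT past 1.5-fold for 2 of them and hardly differed for 2. Polr1a, the catalytic subunit, was at 74.1, 43.9, 62.8 and 76.0. Here control 4OHT was the array set apart, 1.43-fold below the next, while CKO 4OHT and control EtOH were nearly equal. Polr1b, the other large subunit of the enzyme, was at 63.9, 50.2, 57.8 and 81.7, lowest in control 4OHT and highest in CKO 4OHT. Against control 4OHT the differences were 0.79 for Polr1a and 0.70 for Polr1b, both past 1.5-fold. Polr1c and Polr1d are shared with RNA polymerase III. Polr1c was at 237, 197, 180 and 198 and Polr1d at 603, 660, 606 and 702, and their differences against control 4OHT were 0.01 and 0.09. Their second probe sets gave larger differences against control 4OHT, 0.27 for Polr1c and 0.42 for Polr1d.

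The 7 factors of the small subunit were all higher in CKO 4OHT in both comparisons, most by little, with medians of 0.19 against CKO EtOH and 0.30 against control 4OHT. Tsr1, which acts on late precursors of the small subunit in the cytoplasm, was the exception in size. It was at 60.1, 48.0, 50.2 and 85.8, so CKO 4OHT was 1.43-fold above the next array, control EtOH, and 0.77 and 0.84 above CKO EtOH and control 4OHT. Imp3 and Imp4 attach to the U3 snoRNP. Imp3 was at 125, 152, 146 and 188, lowest in control EtOH, and Imp4 was at 94.8, 91.3, 98.2 and 129. In both, CKO 4OHT was the highest array, by 0.30 for Imp3 and by 0.39 for Imp4. The 4 others, Heatr1 and Wdr43, early factors that also bear on transcription of the precursor, Nop14, and Emg1, a methyltransferase, differed from CKO EtOH by 0.06 to 0.19. Wdr43 was at 128, 118, 117 and 134, a narrow range with CKO 4OHT highest. Emg1 was at 378, 321, 360 and 375, and Nop14 at 126, 108, 112 and 121, both with control EtOH highest.

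The 12 factors of the large subunit were higher in CKO 4OHT without exception, also against control EtOH, with medians of 0.38 against CKO EtOH and 0.54 against control 4OHT. Wdr12 forms with Pes1 and Bop1 the PeBoW complex, needed for maturation of the large subunit's RNAs. Its intensity was 127, 76.7, 98.8 and 144, with CKO 4OHT 0.91 above control 4OHT. Control 4OHT was the low array and control EtOH was nearer to CKO 4OHT than CKO EtOH was. Pes1 (124, 112, 138 and 154) and Bop1 (112, 127, 113 and 153) were also highest in CKO 4OHT, but Bop1 was lowest in control EtOH. Within the complex the drug in control cells thus went with a lower value for Wdr12 (-0.72) and Pes1 (-0.14) and a higher one for Bop1 (0.19).

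Nop2, an RNA methyltransferase, was at 150, 140, 141 and 212. The 3 other arrays lay together and CKO 4OHT stood 0.50 above the highest. Ddx21, an RNA helicase, was at 80.2, 85.4, 75.01 and 115, 0.62 above CKO EtOH. Ppan was at 71.5, 48.3, 59.7 and 85.7, and Nop16 at 92.6, 74.2, 91.2 and 126. Ppan, a factor of early large subunit particles, and Nop16 were 0.83 and 0.76 above control 4OHT, and in both control 4OHT was the lowest array. Nip7 and Rrs1 were also past 1.5-fold against control 4OHT (0.62 and 0.60), though the second, dimmer Nip7 probe set was at 0.08. Rrp1b was at 66.0, 48.8, 66.2 and 68.4, low in control 4OHT and nearly level on the other arrays. Ebna1bp2 and Wdr74 were highest in CKO 4OHT, by 0.17 over the next array in each.

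**Figure D3:**
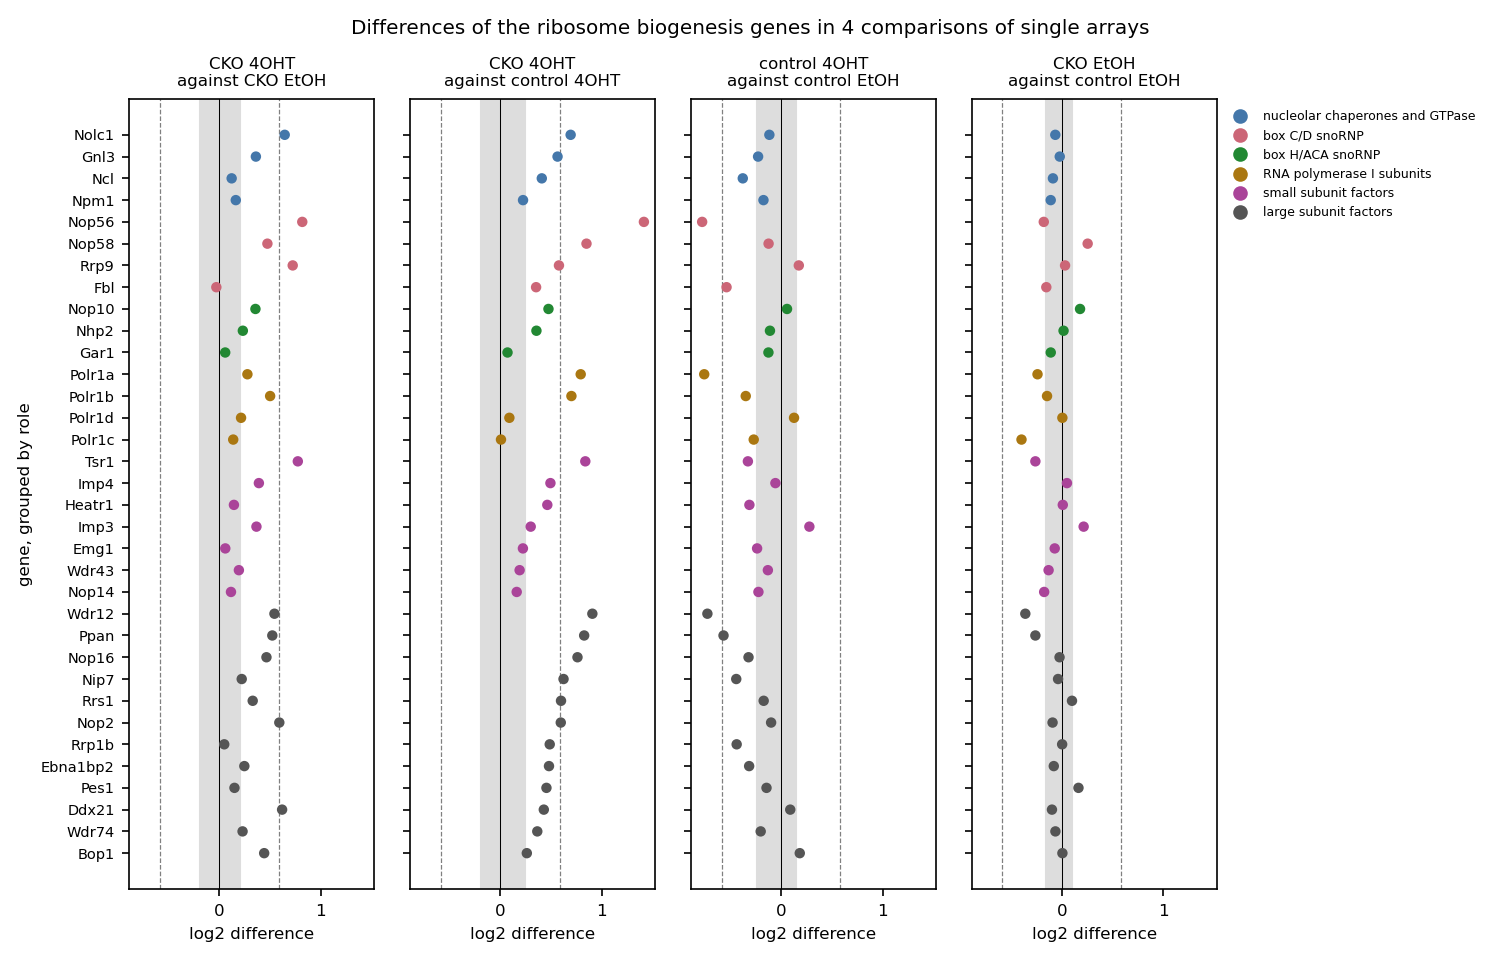
Log2 difference of each of the 34 ribosome biogenesis genes (points, coloured by role) in 4 comparisons of 1 array with 1 array; the grey band is the interquartile range of the 7461 measured genes and dashed lines mark 1.5-fold. All points of CKO 4OHT against control 4OHT lie above 0, and those of control 4OHT against control EtOH lie mostly to the left of 0.

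Without CreER, 4OHT went with lower values. In control 4OHT against control EtOH, 28 of the 34 genes were lower, where 56.6% of measured genes were, with a median of -0.21 against -0.04 over all measured genes. Past 1.5-fold were 3, Nop56 (-0.78), Polr1a (-0.76) and Wdr12 (-0.72), all lower (3.91% of measured genes lower, 3.95% higher). The 6 higher genes (43.3% of measured genes were higher) were Imp3 (0.28), Bop1 (0.19), Rrp9 (0.18), Polr1d (0.13), Ddx21 (0.09) and Nop10 (0.06). Between the 2 cultures given ethanol, CKO EtOH against control EtOH, the median was -0.07 against -0.03, 22 of the 34 were lower (56.2% of measured genes), and none of the 34 passed 1.5-fold (0.59% of measured genes higher, 0.751% lower). The values ran from -0.40 for Polr1c to 0.26 for Nop58.

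The 4OHT difference in cells with CreER minus that in cells without it uses each array once. It was above 0 for all 34 genes, where 54.7% of measured genes were, with a median of 0.50 against 0.04. Past 1.5-fold were 11, all above 0 (11.1% of measured genes, with 8.51% as far below), and past 2-fold 5 (2.75%): Nop56 (1.59), Wdr12 (1.27), Tsr1 (1.10), Ppan (1.09) and Polr1a (1.03). For Polr1a and Wdr12 the low control 4OHT array gave the larger share, -0.76 and -0.72 against 0.28 and 0.54 in cells with CreER. For Tsr1 it was the high CKO 4OHT array, 0.77 against -0.33. A comparison added after the values were seen set CKO 4OHT against control EtOH, so that control 4OHT takes no part. It had 29 of 34 genes higher (47.6% of measured genes), a median of 0.26 against -0.02, and 3 past 1.5-fold, all box C/D proteins: Rrp9 (0.75), Nop58 (0.73) and Nop56 (0.64), where 5.46% of measured genes were higher and 6.7% lower.

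Further probe sets gave a second reading of some genes. There were 25 for 20 of the genes, and 18 of them, for 15 genes, reached the table median. All 18 were higher in CKO 4OHT than in CKO EtOH (median 0.23), 17 were higher than in control 4OHT (median 0.57), and 17 were lower in control 4OHT than in control EtOH (median -0.26). Signs matched less often in the other comparisons. For CKO 4OHT against control EtOH, 12 of the 18 were higher and 6 lower (median 0.10), and 12 had the sign of the probe set used. For CKO EtOH against control EtOH, 16 were lower (median -0.16), and 10 had that sign. The second Nop56 probe set differed by 0.99 against CKO EtOH and 1.30 against control 4OHT, close to the first, but by -0.31 where the first gave -0.78 in control cells. Sizes diverged for several genes. Rrp1b differed by 0.05 against CKO EtOH with the probe set used and by 0.62 and 0.02 with the others, and one of these was -0.08 against control 4OHT. Nhp2 was at 0.23 against CKO EtOH and 0.78 with its second probe set, and Imp4 at 0.39 and 0.85. Ddx21, at 0.09 in control 4OHT against control EtOH, was at -0.56 with its second probe set.

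**Figure D4:**
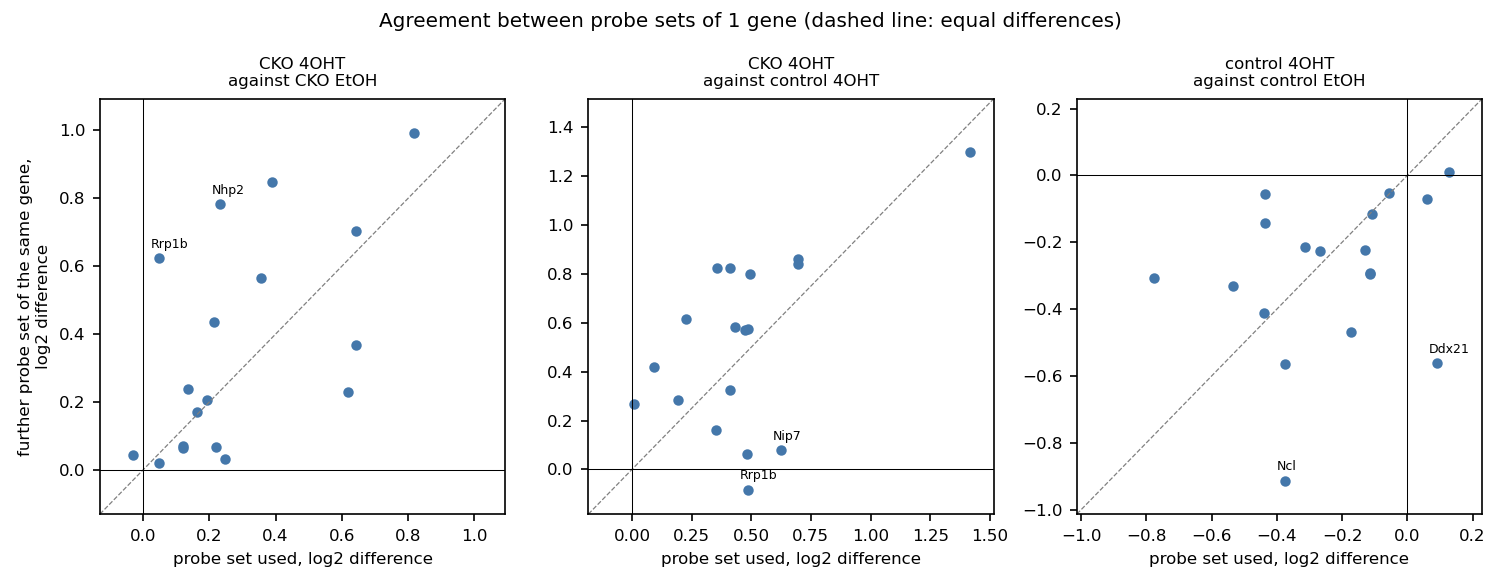
Log2 difference of 18 further measured probe sets (vertical) against that of the probe set used for the same gene (horizontal), 1 point per further probe set, in 3 comparisons of single arrays. Nearly all points share the sign of the probe set used, while several, such as Rrp1b, Nhp2 and Ddx21, lie far from the dashed line of equal differences.

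Other genes of the pathway, from lists made in the same way, differed mostly in the same directions. Like the genes above, these lists were chosen with earlier results of these data known, so they are no independent check. Of 39 measured further factors of the small subunit, 34 were higher in CKO 4OHT than in CKO EtOH and 36 higher than in control 4OHT, with medians of 0.24 and 0.29 (51.3% and 52% of measured genes were higher). Past 1.5-fold were 1 and 5 of the 39, all higher, beside 5.67% and 6.65% of measured genes, so that against CKO EtOH the count was no larger than that share gives. Of 38 further factors of the large subunit, 34 and 36 were higher, with medians of 0.32 and 0.50, and 5 and 17 of the 38 passed 1.5-fold, all higher, beside the same shares of measured genes. Sdad1, 1 of these factors, was at 52.4, 25.8, 43.7 and 55.7, so that its 2-fold difference against control 4OHT (1.11) came with a low control 4OHT array (-1.02 against control EtOH). The 2 brightest of the small subunit list differed from each other in pattern: Utp11 was nearly level at 275, 282, 262 and 278, and Utp4 was at 274, 214, 245 and 364. Eif6, the brightest of the large subunit list, which keeps unfinished large subunits from joining small ones, was at 1731, 1766, 1676 and 1924. Zfp622, the next brightest of that list, was at 950, 733, 755 and 711, lowest in CKO 4OHT. The nuclear exosome, which trims the precursor RNAs, had medians of 0.26 and 0.31 over 11 genes, with 8 and 9 higher, where 51.3% and 52% of measured genes were.

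The 11 measured genes of the further RNA polymerase I machinery had medians of 0.22 against CKO EtOH and 0.24 against control 4OHT. Of these, 8 and 9 were higher, where 51.3% and 52% of measured genes were. Past 1.5-fold against CKO EtOH were 1 higher and 1 lower (5.67% and 5.47% of measured genes). Against control 4OHT it was 1, higher (6.65%). Polr1e, a subunit of the enzyme, was at 23.5, 15.2, 23.3 and 34.6, higher by 1.19 than in control 4OHT, at levels where its probe set is dim. The proteins of the finished ribosome had medians near 0. Of 41 measured cytosolic ribosomal proteins, 20 were higher and 21 lower in CKO 4OHT than in CKO EtOH, with a median of -0.04. Against control 4OHT 30 of the 41 were higher (52% of measured genes), by a median of 0.07, and 3 passed 1.5-fold, all higher (6.65%). Rpl37a was at 4962, 4960, 5073 and 5371. Only 42 of 77 listed ribosomal proteins have a probe set naming them alone, so these medians rest on part of the family.

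**Figure D5:**
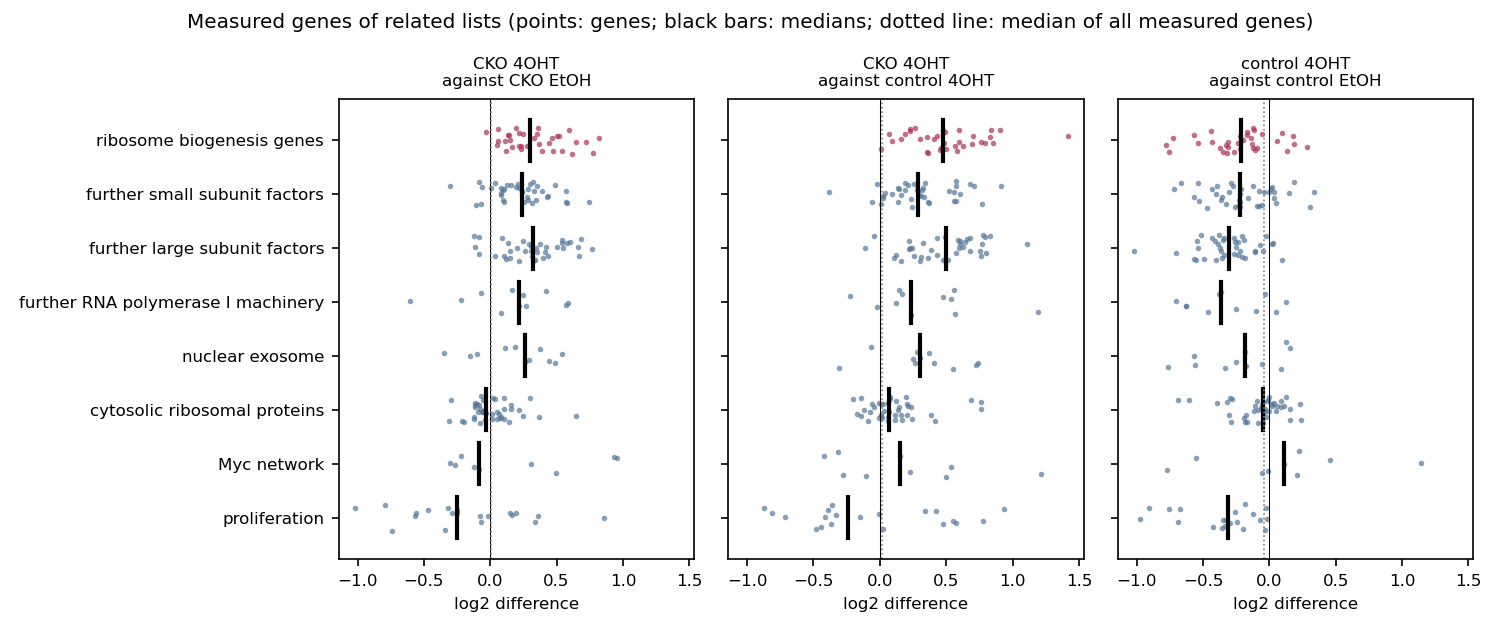
Log2 differences of the 34 ribosome biogenesis genes (red) and of the measured genes of 7 related lists (blue) in 3 comparisons of single arrays, with 1 point per gene, scattered vertically for legibility, and black bars at the medians. The assembly factor lists lie to the right of 0 against CKO EtOH (medians 0.24 and 0.32), the ribosomal proteins around 0 (-0.04) and the proliferation genes to its left (-0.25).

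Myc was at 140, 134, 161 and 312, 0.96 above CKO EtOH and 1.22 above control 4OHT. It was thus high in the same array as the ribosome biogenesis genes, but not low in control 4OHT (-0.06 against control EtOH). The Myc network as a whole had a median of -0.08 over 9 genes against CKO EtOH and of 0.15 against control 4OHT. Max, the partner of Myc, was at 15.4, 34.0, 25.2 and 48.0, lowest in control EtOH.

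Proliferation genes did not share 1 order of the arrays. Of 20 measured proliferation genes, 14 were lower in CKO 4OHT than in CKO EtOH (median -0.25), where 3628 of 7461 measured genes were. In CKO 4OHT 12 were lower than in control 4OHT (median -0.24), where 3567 of 7461 measured genes were. All 20 were lower in control 4OHT than in control EtOH (median -0.31), where 56.6% of measured genes were. All 20 were also lower in CKO EtOH than in control EtOH (median -0.19), where 56.2% of measured genes were. Mki67, a marker of dividing cells and the gene of the list furthest below CKO EtOH, was at 281, 230, 254 and 126, lowest in CKO 4OHT. Rrm2, a subunit of the enzyme that makes deoxyribonucleotides, went the other way at 366, 227, 241 and 436. Of the Mcm genes, which encode the replicative helicase and were named after their values were seen, Mcm3, Mcm4, Mcm5, Mcm6 and Mcm7 were 0.42 to 0.78 higher in CKO 4OHT than in control 4OHT, where each was lowest, while Mcm2 was level between these 2 arrays. Pcna, the replication clamp, was at 1083, 845, 932 and 1069. Of 10 measured differentiation genes, control 4OHT exceeded control EtOH in all 10 (median 0.87), where 43.3% of measured genes were higher. Most ribosome biogenesis genes were lowest in control 4OHT, and the part of the differentiation genes in those values was not tested. Without the drug, CKO EtOH also exceeded control EtOH in all 10 differentiation genes (43.7% of measured genes), by a smaller median (0.29). In CKO 4OHT they split, with Krt1, the first suprabasal keratin, at 21.8 against 136 to 246 on the other arrays, and Tgm1, the envelope transglutaminase, at 198 against 63.3 in control EtOH, 180 in control 4OHT and 67.2 in CKO EtOH. In these bulk cultures, more cells of a state and more RNA per cell cannot be told apart.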

How the data were processed

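The authors deposited RMA intensities of 22626 probe sets on 4 arrays, per the submitters' processing notes. RMA corrects background, normalizes between arrays and summarises probes, and the sources used here name no version. Here the values were turned into log2 without a pseudocount and not normalized again. Symbols were those of the platform annotation, and the Entrez identifiers of all 34 genes matched RefSeq with the same symbols. A gene was read by its probe set with the highest mean log2 value among those naming it alone; 6 of the 34 were read by probe sets ending in _s_at or _x_at, which can cross-hybridise. A gene was measured if its highest array reached the table median (7461 genes).

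With 1 array per group no test was run. Genes were counted at 1.5-fold and 2-fold, beside the same share of all measured genes. Genes to be given with all values were the 6 at either end in CKO 4OHT against CKO EtOH and against control 4OHT, the 4 at either end in the others, those past 2-fold and those deviating most on an array; any other of the 34 could be named, and 6 (Gnl3, Npm1, Nhp2, Polr1b, Imp4 and Nop16) are also given with all values. Of other lists, genes past 2-fold and the 2 brightest could be named, with Prdm1 and Myc. The members and lists were chosen with earlier results of these data known. Python 3.11.15, numpy 2.4.6 and pandas 2.3.3 were used.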

Additional observations from a re-analysis of the deposited data

Results flagged for a closer look

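The response to 4OHT differed in sign between the genotypes for Nop56, which was 0.82 higher with the drug in cells with CreER and 0.78 lower in cells without it (-0.78), a difference of 1.59 on the log2 scale. This difference was not tested, since each group has 1 array. It was 1.30 with the second Nop56 probe set, whose drug difference in control cells was smaller (-0.31). Over all 34 genes the median drug difference was 0.30 in cells with CreER and -0.21 in cells without it, and the median of the gene-wise differences was 0.50, also not tested.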

How the results depend on the processing

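Each result was recomputed with the mean of all probe sets of a gene, without _s_at and _x_at probe sets, with 3 other level filters, with log2(value + 16), with centring on all measured genes and with quantile normalization. Under these the median difference of the genes stayed between 0.26 and 0.34 against CKO EtOH, between 0.42 and 0.48 against control 4OHT (0.26 with control EtOH as the reference, an alternative chosen after seeing the data), between -0.22 and -0.17 for control 4OHT against control EtOH, between -0.08 and -0.03 for CKO EtOH against control EtOH, and between 0.41 and 0.50 for the difference of drug effects. The other level filters kept all 34 genes, or 33 with the 75th percentile, so these settings could hardly change the medians of the genes. Counts of genes past the threshold depended more on the setting. The 6 genes past 1.5-fold against CKO EtOH became 3 with log2(value + 16) and 0 at 2-fold, the 12 against control 4OHT became 1 at 2-fold and 3 with control EtOH as the reference, and the 3 in control 4OHT against control EtOH became 1 with the mean of all probe sets and 0 at 2-fold. Nop56, the 1 gene past 1.5-fold in opposite directions in both genotypes, left 0 such genes with the mean of all probe sets, without _s_at and _x_at probe sets, and at 2-fold. Of 1228 recomputed values of named genes and lists, 66 moved (by more than 0.1 on the log2 scale, or 1.5 times for a count) and 0 changed sign at a size past 1.5-fold. No paired analysis was possible because each group has 1 array.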
